A study of Homo sapiens with 4 samples.

Results

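Of the 25514 H4K20me1 peaks in the deposited table, 2634 were annotated by the authors as distal intergenic and stood 50 kb or more from the nearest transcription start. They are called far intergenic peaks here. Peaks of 6 chromosome parts were left out of this set: all of chromosome 6, chromosome 2 below 90 Mb, chromosome 9 above 40 Mb, chromosome 17 above 25 Mb, chromosome 5 below 45 Mb and chromosome 8 above 92 Mb. Without that step the set would hold 3997 peaks, and intergenic peaks at any distance numbered 5811. The peaks are compared below with 1343 nearer intergenic peaks, under 50 kb from a start, and with 15399 gene peaks. Gene peaks are all those not annotated as distal intergenic, such as peaks in promoters, untranslated regions, exons or introns. Both of these sets leave out the same chromosome parts. Contigs outside the assembled chromosomes, among them an alternative contig of chromosome 6, were kept. The choice of peaks used the annotation and the distance, not the reads.

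The mark was profiled by CUT&Tag, in which an antibody tethers a transposase to chromatin that carries the mark, in Kasumi-1, an acute myeloid leukemia cell line with a RUNX1 and RUNX1T1 fusion. There were 2 libraries of cells with the SETD8 knockout genotype, made with CRISPR/Cas9 and a guide labelled sgSETD8, and 2 libraries of cells labelled WT that carry sgNT. Nothing in the labels says whether the knockout cells are 1 clone or a pool, nor whether libraries with 1 label are from separate cultures. The table gives 1 value per group and peak, so no difference has a replicate check and none was tested here. Whether a value draws on 1 library or both, and whether the authors' p-values rest on replicates, is not stated. No header states which group is which, so the columns are called first-listed and second-listed, and every log2 fold change is first-listed minus second-listed. The deposited comparison is named treated versus control, and if the columns follow that name the first-listed group is the knockout. Coordinates are those of hg38.

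H4K20me1 is a single methyl group on lysine 20 of histone H4, and SETD8, also named KMT5A, is the enzyme that places it. Other enzymes can carry it on to the higher methylation states, and demethylases can remove it. The mark is best known from the bodies of transcribed genes, from the inactive X chromosome and from its rise late in the cell cycle. Intergenic stretches far from any start hold few annotated genes, and what the mark does there is less settled.

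Reads in all peaks came to 2791207 first-listed and 2682916 second-listed. Of these, 144026 first-listed and 153055 second-listed reads lay in far intergenic peaks. A peak in the promoter or body was found for 8 of 12 Kasumi-1 and myeloid marker genes, 2 of 8 B and T cell markers, 3 of 6 epithelial and liver markers and 2 of 5 neuronal markers. A peak of this mark is not a measure of expression. No spiked-in reference was used here, so a loss spread evenly over the genome would not show.

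Most of these peaks lie outside every promoter in the RefSeq table, but 18 of them overlap 20 promoters of GRCh38.p14, 18 of which belong to long noncoding RNA genes. Sequences are shown for the 3 promoters that lie wholly in a far intergenic peak and whose peak differed most between the columns. Each runs from 250 bases before to 50 bases after the start, 5′ to 3′ on the gene's strand. Capitals mark matches to the RUNX motif TGTGGT or the E-box CANNTG, on either strand. The peak over the first promoter held 133 first-listed and 71 second-listed reads, the peak over the second 61 first-listed and 126 second-listed reads, and the peak over the third 20 first-listed and 41 second-listed reads.
LOC105376627 (chr11:35082583-35082882, plus strand): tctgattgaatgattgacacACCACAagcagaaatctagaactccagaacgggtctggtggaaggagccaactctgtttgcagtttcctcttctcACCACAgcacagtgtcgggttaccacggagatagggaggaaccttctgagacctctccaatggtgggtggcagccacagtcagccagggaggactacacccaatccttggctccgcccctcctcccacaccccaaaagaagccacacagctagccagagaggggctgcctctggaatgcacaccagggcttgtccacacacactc
LOC124903066 (chr12:84361927-84362226, minus strand): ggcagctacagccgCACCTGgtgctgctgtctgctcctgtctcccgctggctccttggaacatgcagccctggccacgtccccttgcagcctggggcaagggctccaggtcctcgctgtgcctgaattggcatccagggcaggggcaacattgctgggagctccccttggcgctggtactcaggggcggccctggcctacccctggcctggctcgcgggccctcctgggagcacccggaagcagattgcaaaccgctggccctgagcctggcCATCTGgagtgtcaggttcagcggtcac
LOC105369878 (chr12:87055197-87055496, minus strand): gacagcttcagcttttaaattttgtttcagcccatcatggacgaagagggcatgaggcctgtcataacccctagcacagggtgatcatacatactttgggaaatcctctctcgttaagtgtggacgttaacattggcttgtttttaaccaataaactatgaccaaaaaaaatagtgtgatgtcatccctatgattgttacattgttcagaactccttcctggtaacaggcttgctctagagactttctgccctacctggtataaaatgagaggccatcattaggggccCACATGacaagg
The first holds 2 matches to the RUNX motif, the second 2 E-boxes and the third 1 E-box. Over the 20 promoters, 5 held the RUNX motif, against 13.1% of all 35116 promoters in the table, and 14 held an E-box, against 68.7%. The AP-1 motif TGANTCA stood in 5 of the 20 (7.71% of all), the GATA motif AGATAA in 2 (10.3%) and the ETS motif CCGGAAGT in 0 (4.14%). Their median GC content was 55.8%, with a range of 37.7 to 79.3%, against 58.7% for all promoters and 50.0% for those of long noncoding RNAs. The ratio of observed to expected CpG had a median of 0.303, against 0.579 for all promoters. A match describes these letters and is not evidence of binding, and sequence under the other far intergenic peaks was not analysed here.

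Far intergenic peaks were smaller signals than gene peaks. Levels are given in scaled reads, the authors' log2 values turned back to a linear scale. The median far intergenic peak held 45.4 scaled reads first-listed (quartiles 32.9 and 62.8) and 47.2 second-listed (quartiles 33.6 and 65.3). Nearer intergenic peaks held 52.0 first-listed and 49.9 second-listed, and gene peaks 83.3 first-listed and 76.1 second-listed. Far intergenic peaks had a median width of 967.5 bp, from 272 to 4656 bp, and covered 2.82 Mb in all. Per kb of peak, the median level was 50.6 scaled reads in far intergenic peaks, 54.1 in nearer intergenic peaks and 76.4 in gene peaks. The far peaks thus stood at 66.2% of the gene level per kb and at 93.6% of the nearer intergenic level. With all 25514 peaks cut into 4 level classes of equal size, lowest-step peaks apart, 43.0% of far intergenic peaks were in the lowest class and 2.54% in the highest, against 34.3% and 8.49% of nearer intergenic peaks and 18.7% and 29.6% of gene peaks.

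The 2 columns were balanced over far intergenic peaks, while gene peaks were higher in the first-listed column. The median log2 fold change was −0.01 (quartiles −0.30 and 0.22) over far intergenic peaks, 0.06 over nearer intergenic peaks and 0.12 over gene peaks, against 0.06 over all peaks. The far median was 0.07 below the nearer intergenic one and 0.13 below the gene one. Values below 0 were found in 50.7% of far intergenic peaks, 38.9% of nearer intergenic peaks and 35.1% of gene peaks. The ratio of summed reads gave log2 values of −0.03, 0.09 and 0.16 in the same order of sets. The central 95% of far intergenic peaks ran from −0.90 to 0.87. The zero point depends on scaling: with both columns set to equal sums, the far median was −0.12, and the gaps between sets are unaffected by such a shift.

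**Figure D1:**
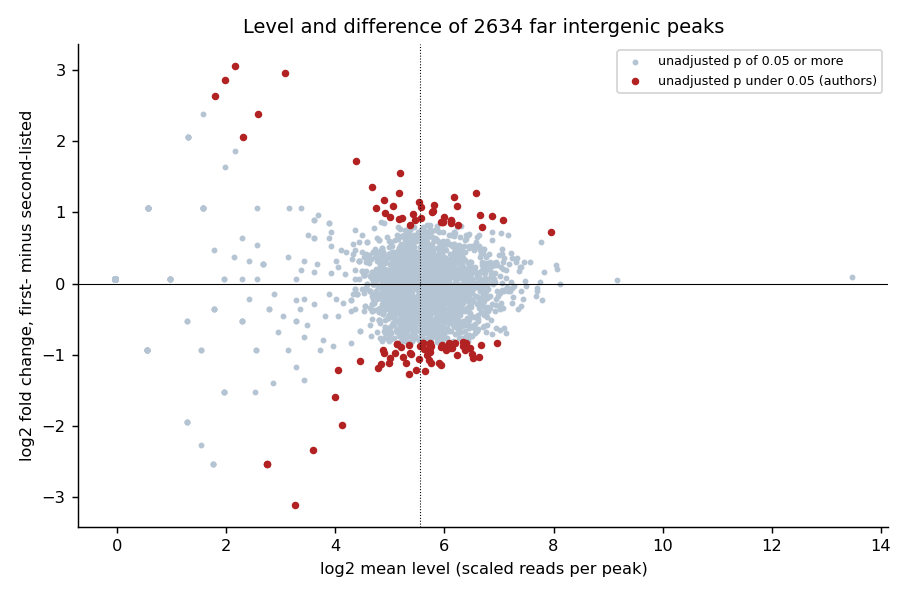
Each point is 1 of 2634 far intergenic peaks, with log2 mean scaled reads on the horizontal and log2 fold change, first-listed minus second-listed, on the vertical axis, red where the unadjusted p of the authors' deposited table is under 0.05, and with a dotted line at the median level. The points lie about evenly on both sides of 0, and the widest values are at the lowest levels.

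In the authors' deposited table, no far intergenic peak passed an adjusted p of 0.05, where the background over all peaks is 0%, and 104 had an unadjusted p below 0.05. The lowest value of the adjusted p, 0.547 in the authors' deposited table, belonged to the peak nearest HNRNPD described below. Of the 104 by the authors' deposited table, 43 far intergenic peaks (1.63%) were higher in the first-listed column, where the background is 3.37%, and 61 (2.32%) were lower, where it is 1.69%. Among nearer intergenic peaks 36 were higher and 25 lower by that p in the authors' deposited table, and among gene peaks 611 were higher and 141 lower. By size alone, 49 far intergenic peaks (1.86%) had a log2 fold change of 1 or more, near the background of 1.55%, and 40 (1.52%) had one of −1 or less, against a background of 0.909%. The balance of these counts turned under other choices, since with equal sums 21 were up and 71 down, and without peaks at 1 Mb or more 30 were up and 35 down. Of these 89 peaks, 58 had fewer than 16 reads in the lower column and 24 lay 1 Mb or farther out, so most of the large folds rest on few reads.

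The log2 fold change was lower in farther distance bins up to 1 Mb. Intergenic peaks under 10 kb from a start had a median of 0.06 (n = 332), and those at 10 to 50 kb also had 0.06 (n = 1011). Far intergenic peaks had medians of 0.03 at 50 to 100 kb (n = 617), −0.02 at 100 to 200 kb (n = 702), −0.05 at 200 to 500 kb (n = 858) and −0.07 at 500 to 1000 kb (n = 302). The share below 0 was 47.6%, 51.4%, 55.2% and 56.0% over these 4 bins. The threshold of 50 kb itself marks no step: the 158 intergenic peaks at 40 to 50 kb and the 163 at 50 to 60 kb both had a median of 0.06. Just inside the threshold stood peaks nearest LINC01877 (50.035 kb, log2 fold change 0.80) and TPTE (50.109 kb, −0.69), and just outside it peaks nearest CBLN2 (49.981 kb, 0.17) and DGCR6 (49.955 kb, −0.94).

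The 155 peaks at 1 Mb or more stood apart, with a median of 0.06 and 23.9% below 0. Of these, 69 (44.5%) were at the lowest step of both columns, which reads as 1 read each, though whether it stands for 0 reads is not settled, and there the log2 fold change of 0.06 only restates the 2 scaling constants. Such peaks made up 141 of all far intergenic peaks (5.35%), against 7.07% of nearer intergenic peaks and 2.54% of all peaks. With them left out, the far median was −0.04, and the bins from 50 kb outward had medians of 0.01, −0.03, −0.06, −0.09 and 0.06. Whether the peaks at 1 Mb or more lie in centromeric or other repeated sequence was not examined here.

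**Figure D2:**
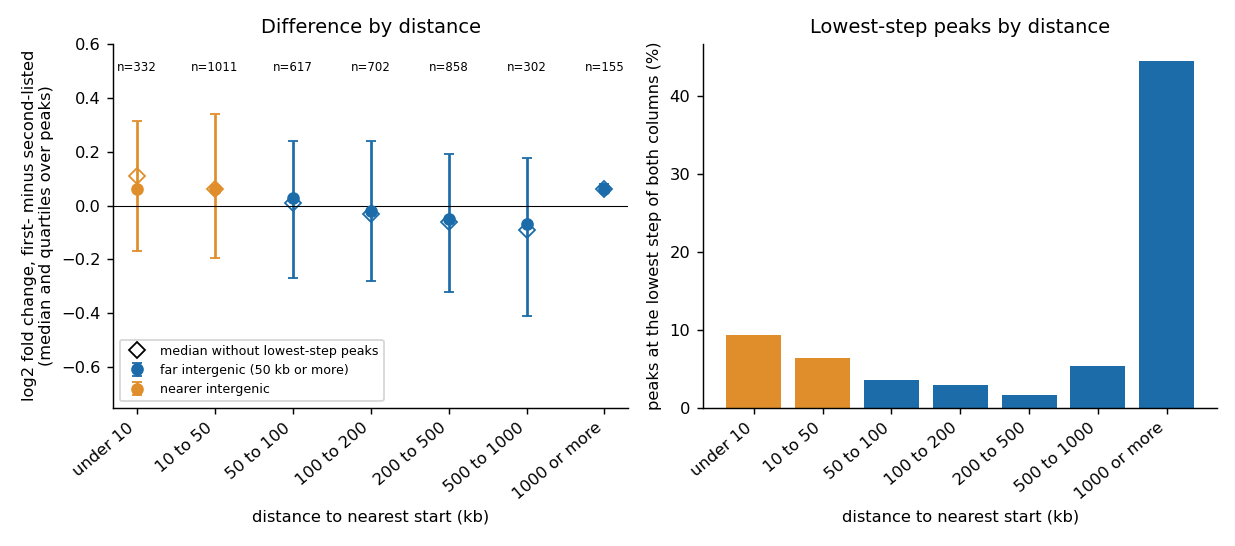
Left, log2 fold change, first-listed minus second-listed, of intergenic peaks by distance to the nearest start in kb, as medians with bars for the quartiles and diamonds for the median without lowest-step peaks, and right, the percentage of peaks at the lowest step. The median is −0.07 at 500 to 1000 kb, and the bin at 1 Mb or more, with 44.5% of peaks at the lowest step, stands at 0.06.

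Level moved with the fold change among gene peaks but little among far intergenic ones. From the lowest to the highest of the 4 level classes, with limits at 45.9, 71.0 and 122.8 scaled reads over all peaks, far intergenic peaks above the lowest step had medians of −0.04 (n = 1132), −0.05 (n = 866), −0.05 (n = 428) and 0.02 (n = 67). Nearer intergenic peaks had 0.06, 0.08, 0.065 and 0.175, and gene peaks 0.06, 0.08, 0.14 and 0.19. At like level the far median was thus below both other medians in each of the 4 classes. Among peaks of the 2 middle classes, the distance bins also ran downward, with medians of 0.095 under 10 kb, 0.075 at 10 to 50 kb, 0.005 at 50 to 100 kb, −0.02 at 100 to 200 kb, −0.07 at 200 to 500 kb and −0.14 at 500 to 1000 kb.

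**Figure D3:**
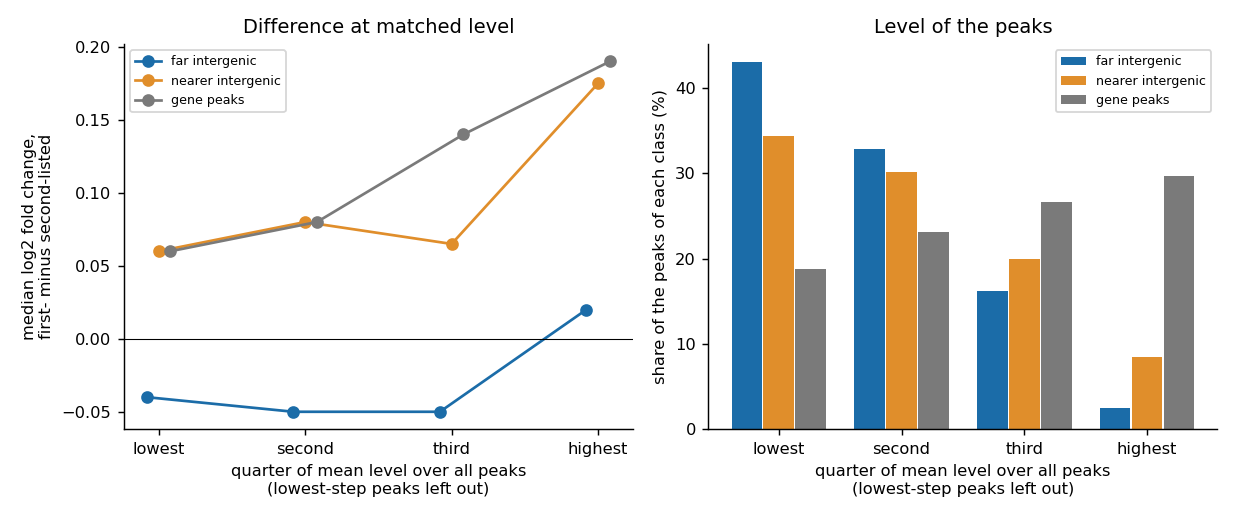
Left, median log2 fold change, first-listed minus second-listed, in 4 classes of mean level for far intergenic, nearer intergenic and gene peaks, without lowest-step peaks, and right, the share of each set in each class in percent. Gene peaks reach 0.19 in the highest class, where the 67 far intergenic peaks stand at 0.02 and make up 2.54% of their set.

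Peaks on either side of a start had like medians. The 1362 far intergenic peaks upstream of their nearest start had a median of −0.02 and the 1272 downstream ones −0.01. By the authors' nearest gene, 61.7% of far intergenic peaks were assigned to a protein-coding gene, against 73.3% of nearer intergenic peaks and 88.8% of gene peaks. Long noncoding RNA genes were nearest to 31.6% of far intergenic peaks (95% interval 29.8 to 33.4%), 16.7% of nearer intergenic peaks (14.7 to 18.8%) and 7.24% of gene peaks. The newer RefSeq annotation places 544 of the far intergenic peaks (20.7%) inside a gene, most of them, 378, inside a long noncoding RNA gene. The peaks inside such RNA genes had a median of 0.01, and the 2090 that overlap no RefSeq gene had −0.02. Of 2387 far intergenic peaks on chromosomes with starts in the promoter table, which lists none on chromosome 8, 513 (21.5%) stood within 50 kb of a RefSeq start. The label of far intergenic thus depends on the annotation. The 1573 that were 50 kb or more from each such start and outside every RefSeq gene again had a median of −0.02.

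Far intergenic peaks were spread unevenly over the chromosomes. Chromosome 10 held 324 (12.3%), against 6.94% of gene peaks, and chromosome 18 held 195 (7.40%), against 3.46%. Chromosome 19 held 15 (0.569%), against 6.10% of gene peaks, and the X chromosome 8 (0.304%), against 1.85%. Per Mb of sequence 50 kb or more from each RefSeq start and outside RefSeq genes, assembly gaps included, chromosome 10 held 8.24 peaks, chromosome 18 5.58 and chromosome 11 5.19. The 21 chromosomes with such a value held 2.38 together, with the lowest values of 0.11 on X, 0.465 on chromosome 13 and 0.485 on chromosome 15. Chromosome 19 has only 6.61 Mb of such sequence and held 2.12 per Mb, and 11 of its 15 peaks were at the lowest step. Chromosome 8 has no such value, since the promoter table lists no start there.

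The gap to gene peaks recurred across chromosomes. On 18 of the 19 chromosomes with 30 or more far intergenic peaks, their median was below that of the chromosome's gene peaks, with chromosome 13 the exception. The difference ran from −0.35 on chromosome 16 to 0.01 on chromosome 13. The far median was below the nearer intergenic one on 15 of the 19 and below 0 on 10. Among these 19, chromosome 16 had the lowest far median, −0.22 (n = 31), followed by −0.105 on chromosome 15 and −0.10 on chromosome 18. Chromosome 10 stood at 0.03, with 12 peaks (3.70%) higher and 4 (1.23%) lower by unadjusted p in the authors' deposited table, near the background of 3.37% and 1.69%. Chromosome 12 stood at −0.08, with 1 (0.794%) higher and 7 (5.56%) lower by that p in the authors' deposited table.

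**Figure D4:**
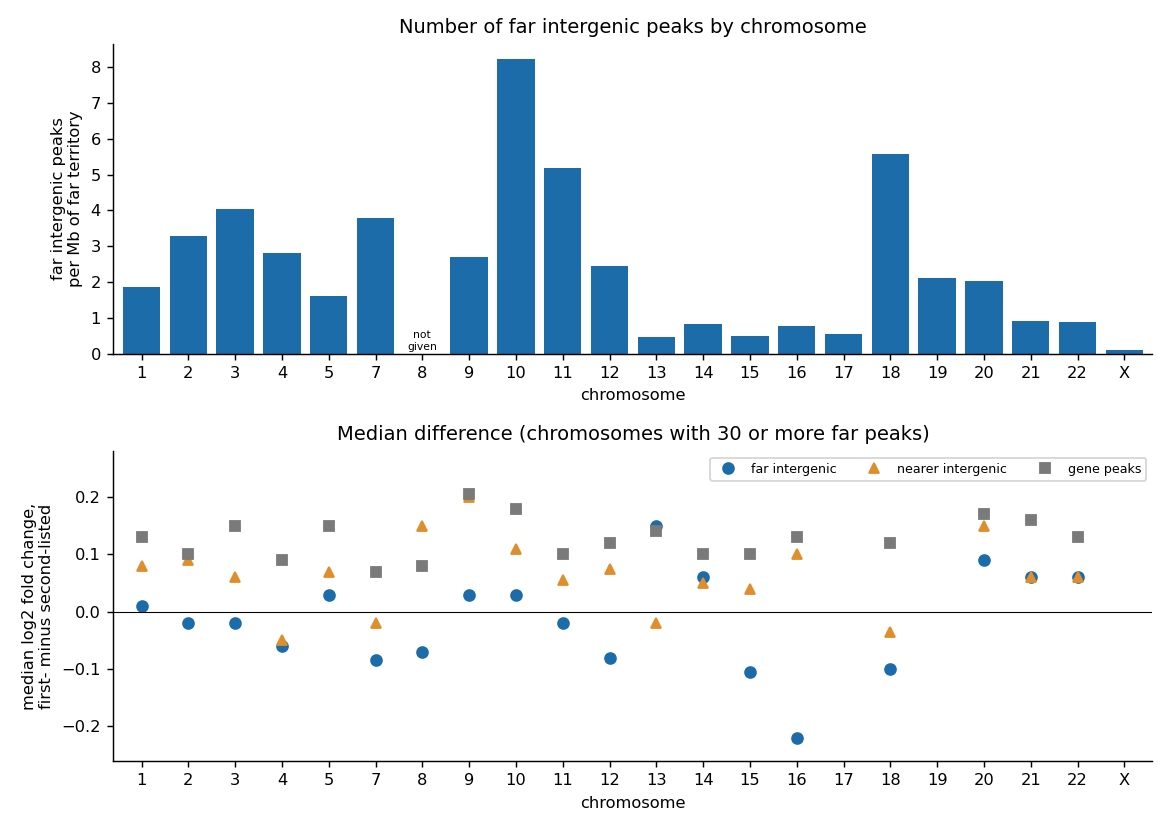
Above, far intergenic peaks per Mb of far sequence on each chromosome, and below, the median log2 fold change, first-listed minus second-listed, of far intergenic, nearer intergenic and gene peaks there. Chromosome 10 stands highest at 8.24 per Mb, and the far median is below the gene median on 18 of the 19 chromosomes with 30 or more far peaks.

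The peaks came in runs. With neighbours up to 100 kb apart joined, the 2634 peaks fell into 1155 runs, of which 648 were single peaks and 29 held 10 or more. These 29 took in 461 peaks (17.5%). In 3 of them at least 50% of the peaks were at the lowest step, on chromosome 2 (92197137 to 92831726), chromosome 5 (49546188 to 49667337) and chromosome 8 (85643221 to 85828386). Of the other 26 runs, 9 were on chromosome 10, 14 had a median below 0, and medians ran from −0.315 to 0.26. Peaks of a run share a stretch of chromatin and are not independent of each other.

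The longest run by number of peaks lay on chromosome 10 between SH2D4B, which encodes an adaptor protein, and NRG3, which encodes a ligand of the ERBB4 receptor. Its 43 peaks covered positions 80699411 to 81764814 and held 3426 first-listed and 3256 second-listed reads, a log2 ratio of 0.13 (exact Clopper-Pearson 95% interval 0.06 to 0.20). Intervals in the text cover counting error only and take the authors' scaling as given, and reads are not independent molecules. Single peaks of the run ranged from −0.77 to 0.72, with 20 below 0 and 23 above. Its first peak held 146 first-listed and 92 second-listed reads (0.72), and its last peak 42 first-listed and 54 second-listed reads (−0.31).

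The second run was on chromosome 4, from 45171406 to 46003617, between GNPDA2, an enzyme of amino sugar metabolism, and GABRG1, a subunit of the GABA-A receptor. Its 35 peaks held 2453 first-listed and 2862 second-listed reads, a log2 ratio of −0.17 (−0.24 to −0.09), and 23 of them were below 0. Its first peak held 78 first-listed and 82 second-listed reads (−0.02) and its last 82 first-listed and 97 second-listed (−0.19). The third, on chromosome 10 from 64992498 to 65520176 by LOC101928887 and LINC01515, held 26 peaks with 1608 first-listed and 1808 second-listed reads, a log2 ratio of −0.11 (−0.21 to −0.01). Its first peak held 56 first-listed and 53 second-listed reads (0.14) and its last 78 first-listed and 72 second-listed (0.17), both against the direction of the sum.

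In 2 stretches of chromosome 10, runs that follow each other had medians of the same sign on the authors' scaling. Near MIR3924, 3 successive runs of 12, 15 and 22 peaks between 56580553 and 57993492 had medians of −0.105, −0.13 and −0.19. From SH2D4B to CCSER2, 4 successive runs had medians of 0.01, 0.04, 0.26 and 0.23. With no scaling each value shifts by −0.057, and the first 2 of these 4 medians turn below 0. The run highest by median, 0.26, was the 12 peaks at 83726905 to 84076998 of chromosome 10 by GHITM, which encodes a protein of the inner mitochondrial membrane, with 1024 first-listed and 879 second-listed reads and a log2 ratio of 0.28 (0.15 to 0.41). Next to it on chromosome 10, 17 peaks by CCSER2 (84539944 to 85061550) had 1616 first-listed and 1443 second-listed reads, a ratio of 0.22 (0.12 to 0.32). The lowest run by median, −0.315, was on chromosome 12 (74619108 to 75000525) between ATXN7L3B and KCNC2, a voltage-gated potassium channel, with 637 first-listed and 832 second-listed reads and a ratio of −0.33 (−0.48 to −0.18). On the authors' scaling, the summed interval left out 0 in 8 of the 26 runs, 3 above and 5 below, for counting error alone. Among these 5, the interval of a run on chromosome 8 (75664871 to 76170936) ended at −6.5e-05. With equal sums each value shifts by −0.114, so these counts depend on the scaling.

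In all, 897 genes were nearest to at least 1 far intergenic peak, and 42 genes to 10 or more. MIR3924, a microRNA gene, was nearest to 33, with a median of −0.19 and 24 below 0, and NRG3 to 31, with a median of 0.00. ZWINT, a kinetochore protein gene, was nearest to 16, with a median of −0.27 and 13 below 0. CCSER2 was nearest to 12, with a median of 0.265.

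The single peaks that differed most are taken among the 1328 at or above the median level of the set. The highest value was 107.69 kb upstream of ATP11B, a phospholipid flippase gene, at 182683765 to 182685810 of chromosome 3, with 135 first-listed and 58 second-listed reads and a log2 fold change of 1.28 (0.82 to 1.75). Its unadjusted p in the authors' deposited table was 0.00213 and its adjusted p 0.649. Upstream of MB21D2, also on chromosome 3, a peak held 101 first-listed and 45 second-listed reads (1.22), and one upstream of QRFPR, a neuropeptide receptor gene, 77 first-listed and 37 second-listed (1.11). The highest of 11 peaks nearest RAG2, a subunit of the V(D)J recombinase, held 154 first-listed and 83 second-listed reads (0.95). Those 11 had a median of 0.06, with 5 below 0. A peak nearest WAPL, which releases cohesin from chromatin, held 74 first-listed and 38 second-listed reads (1.02). One nearest SNAI2, a transcriptional repressor gene, held 84 first-listed and 46 second-listed (0.93). The other 4 of the 10 highest were nearest LINC01986 (102 first-listed and 50 second-listed reads, 1.09), FAM241A (65 first-listed and 32 second-listed, 1.08), MIR6072 (73 first-listed and 38 second-listed, 1.00) and LOC100507144 (133 first-listed and 71 second-listed, 0.96), the last being the peak over the first promoter shown above.

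The lowest value was 455.36 kb downstream of the start of LRRC4C, a netrin-G ligand of synapses, at 39785262 to 39786523 of chromosome 11, with 30 first-listed and 73 second-listed reads and a log2 fold change of −1.23 (−1.89 to −0.59). Its unadjusted p in the authors' deposited table was 0.00437 and its adjusted p 0.726. The other 2 peaks nearest LRRC4C were both at 0.46. Peaks nearest WDR72 (38 first-listed and 87 second-listed reads, −1.14), KCTD3 (38 first-listed and 86 second-listed, −1.12) and SLC16A7, a monocarboxylate transporter gene (34 first-listed and 77 second-listed, −1.12), came next. They were followed by LINC02433 (34 first-listed and 74 second-listed, −1.07), ANKRD30BL (60 first-listed and 128 second-listed, −1.04), LINC00290 (65 first-listed and 138 second-listed, −1.03), LOC101927378 (50 first-listed and 105 second-listed, −1.01), LYPLAL1 (34 first-listed and 71 second-listed, −1.01) and SLC6A15, an amino acid transporter gene (61 first-listed and 126 second-listed, −0.99). This SLC6A15 peak is the one over the second promoter shown above. The 11 peaks nearest SLC6A15 had a median of 0.10, with 5 below 0, and other peaks nearest KCTD3 ran from −0.35 to 0.10. The third promoter's peak, 215.787 kb from MGAT4C, had a log2 fold change of −0.98 (−1.83 to −0.17).

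The highest and lowest peaks differed in place. Of the 10 highest, 7 were upstream of their nearest start and their median distance was 88.6 kb, while 9 of the 10 lowest were downstream and their median distance was 239 kb. These 20 peaks were chosen by their values, so this describes them and is no test. Over the whole set the peaks upstream and downstream did not differ in median by more than 0.01. Of the upstream peaks 34 (2.50%) were at a log2 fold change of 1 or more and 14 (1.03%) at −1 or less. Of the downstream peaks these were 15 (1.18%) and 26 (2.04%), where the background is 1.55% and 0.909%. This difference was not tested. Of these 89 peaks, 58 had fewer than 16 reads in the lower column, and 19 of the 49 upward ones lay 1 Mb or farther out.

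By unadjusted p in the authors' deposited table, the smallest value was 0.000409, for a peak at 82284881 to 82285228 of chromosome 4, 72.164 kb from the start of HNRNPD, an RNA-binding protein gene of mRNA decay. It held 54 first-listed and 19 second-listed reads, a log2 fold change of 1.56 (0.79 to 2.40). Next to it in that order of p stood peaks nearest MIR4436A, within the immunoglobulin kappa locus (32 first-listed and 10 second-listed reads, 1.73), ATP11B, LINC00709 (51 first-listed and 22 second-listed, 1.27) and LINC00839 (15 first-listed and 2 second-listed, 2.96). Among lower peaks, one on chromosome 16 at 34592595 to 34593651 held 2 first-listed and 18 second-listed reads (−3.11, p = 0.00128 in the authors' deposited table), and others were nearest LINC02188 (7 first-listed and 29 second-listed, −1.99), LINC00709 (4 first-listed and 21 second-listed, −2.34), CCDC102B (24 first-listed and 60 second-listed, −1.27) and LRRC4C. The 2 peaks nearest LINC00709 lay at 9402201 to 9402701 and 9407210 to 9408341 of chromosome 10, close together and with opposite signs.

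The strongest signals had log2 fold changes from −0.01 to 0.26. One peak of 455 bp on chromosome 3 (93470358 to 93470812), with PROS1 as its nearest gene at 440.345 kb, held about 11585 first-listed and 11323 second-listed reads, a log2 fold change of 0.09 (0.05 to 0.13). It alone carried 8.04% of first-listed and 7.40% of second-listed reads in far intergenic peaks, and without it the summed log2 ratio of the set was −0.04. Its mean level was 11268 scaled reads, against 576 in the next peak. Read numbers this high are approximate, since the log2 values are rounded, and the interval covers neither this nor the scaling. Whether such high levels come from repeated sequence was not tested. The next 4 by level were nearest SRGAP2-AS1 (584 first-listed and 587 second-listed reads, 0.05), PROK2, a secreted prokineticin (276 first-listed and 289 second-listed, −0.01), SALRNA3 (286 first-listed and 261 second-listed, 0.20) and CCSER2 (286 first-listed and 248 second-listed, 0.26, interval 0.01 to 0.51). The 3 farthest peaks, up to 4840.5 kb from OR11H1 on chromosome 22, held 6, 11 and 10 first-listed reads and 10, 10 and 2 second-listed reads. Their log2 fold changes were −0.68 (−2.42 to 0.92), 0.19 (−1.18 to 1.59) and 2.38 (0.15 to 5.61), the last with an unadjusted p of 0.0263 in the authors' deposited table.

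Of the gene lists, neuronal adhesion and synapse genes had the most far intergenic peaks beside long noncoding genes. For 28 of its 78 genes, 134 peaks (5.09% of the set) were nearest, with a median log2 fold change of −0.155, 88 below 0 and 43 above. By unadjusted p in the authors' deposited table, 5 of the 134 (3.73%) were lower, where the background is 1.69%, and 0 higher, where it is 3.37%. The list was chosen with earlier results of these data known, so these values describe it and are no test. The median was −0.19 over the 21 peaks nearest GABRG1, −0.195 over the 12 nearest CDH7 and −0.245 over the 8 nearest CDH2, both cadherin genes. The 7 peaks nearest CNTN6 had a median of −0.45 and the 4 nearest CNTN4, all below 0, had −0.465. These contactins are adhesion molecules of axons. The widest differences in the list were 2 first-listed and 12 second-listed reads at a CNTN6 peak (−2.53) and 8 first-listed and 25 second-listed reads at a CNTN4 peak (−1.59). LSAMP, another neuronal adhesion gene, went the other way, with a median of 0.13 over 8 peaks. So did the cadherin genes CDH19, with 0.18 over 7 peaks, and CDH13, with 0.26 over 2. By gene, 20 of the 28 had a median below 0, 5 above and 3 at 0.

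Distance moved with this list. Its peaks had a median distance of 260 kb, against 199 kb for the set. Its median was −0.06 at 50 to 100 kb, where other far intergenic peaks had 0.03, −0.175 against −0.01 at 100 to 200 kb, −0.075 against −0.05 at 200 to 500 kb and −0.35 against −0.05 at 500 to 1000 kb, over 15, 36, 54 and 25 list peaks. Many of these peaks share a run, and nothing here was tested.

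Blood regulators had few far intergenic peaks, 7 for 5 of 68 genes, with a median of −0.09. The peak nearest IKZF1, a lymphoid transcription factor gene, held 67 first-listed and 44 second-listed reads (0.66), and that nearest GATA3, a T cell factor gene, 28 first-listed and 47 second-listed (−0.69). The single peaks nearest KIT, a stem cell receptor, and MECOM, a stem cell factor, stood at 0.26 and −0.42, and the 3 nearest CSF3R, the granulocyte growth factor receptor, had a median of −0.09. Developmental transcription factors had 6 peaks for 5 of 64 genes, with a median of 0.27, among them SALL3 (33 first-listed and 20 second-listed reads, 0.78) and FOXP1 (44 first-listed and 64 second-listed, −0.48). Zinc finger genes had 32 peaks for 11 genes with a median of −0.025, from ZNF804A (37 first-listed and 72 second-listed reads, −0.90) to ZNF804B (57 first-listed and 32 second-listed, 0.89). Olfactory receptor genes had 17 peaks for 5 genes with a median of 0.17, 5 of them at the lowest step. Long noncoding genes had 832 peaks for 248 genes with a median of −0.03, and 11 (1.32%) were higher and 20 (2.40%) lower by unadjusted p in the authors' deposited table, where the background is 3.37% and 1.69%.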

How the data were processed

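H4K20me1 CUT&Tag was made from 4 Kasumi-1 libraries, 2 of SETD8 knockout cells and 2 of control cells. The submitters' processing notes name build hg38 and, with no version or role, Bowtie2, cutadapt and DESeq. Peak caller and duplicate handling are not given in the labels. The values the authors deposited are log2 scaled reads per peak, 1 column per group, the log2 fold change, and an unadjusted and an adjusted p-value. The columns are named by number only, so their meaning was read from the values. Low log2 values (5676 first-listed and 5851 second-listed) match whole reads times a factor, with log2 of 0 and −0.057, within 0.0051, and this gave the reads per peak. A column of 1 library, or of reads pooled before scaling, would give such a match. Which of these a column holds is not stated, nor whether the authors' p-values rest on replicates. If both ends of a fragment were counted, the intervals are too narrow. At high levels the rounded log2 values fit more than 1 whole number, so reads there are approximate. With 1 value per group, the planned limma test was not possible and each p-value printed comes from the authors' deposited table.

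Peaks were chosen by annotation and distance, and medians, counts and exact Clopper-Pearson 95% intervals were computed in Python 3.11.15 with pandas 2.3.3, NumPy 2.4.6, SciPy 1.17.1 and Matplotlib 3.10.9. Read recovery at low read numbers, intervals and medians were checked on simulated data. Named peaks are the 10 highest and 10 lowest log2 fold changes at or above the median level of the set, the 5 of highest level, the 3 farthest, the 5 smallest p in each direction, the ends of the 3 longest runs and up to 2 per gene list. The members and the lists were chosen with earlier results of these data known. Nearest genes matched the RefSeq table of GRCh38.p14 for 2628 of 2634 peaks, and the sequences are from RefSeq on that build. Alternatives covered distance, level, lowest-step peaks, scaling and chromosome parts. Base composition of the peaks was planned and not analysed here.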

Additional observations from a re-analysis of the deposited data

How the results depend on the processing

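Of 72 values computed under the alternatives, 49 stayed within the interval of the main value or within 1.5 times the main count, and 23 moved. From 100 kb outward, 26 of 2017 peaks were higher by unadjusted p in the authors' deposited table. Over all 25514 peaks, 3.37% were higher and 1.69% lower by that p. Past a log2 fold change of 1 stood 1.55% of all peaks upward and 0.909% downward. The counts that follow come from sets of different size and are not compared with each other. At or above the median level of all peaks (506 peaks) the median log2 fold change was −0.05, −0.15 relative to nearer intergenic peaks and −0.22 relative to all other peaks, with a median level of 87.4 scaled reads, 9 higher and 12 lower by p in the authors' deposited table, and 3 past the fold of 1 in each direction. Without lowest-step peaks these were −0.04, −0.11, −0.17 and 48.5. With equal sums the median was −0.12, with 21 of 2634 peaks past the fold upward and 71 downward, and with no scaling −0.067. With all chromosome parts kept (3997 peaks) the median was −0.04, −0.10 relative to nearer intergenic peaks, with a level of 49.2. Of these 3997, 130 were lower by p in the authors' deposited table and 79 lower by fold. Without peaks at 1 Mb or more, 30 of 2479 (1.21%) were past the fold upward. Leaving out chromosome 10, measuring from RefSeq starts and leaving out peaks at 1 Mb or more were chosen after seeing the data. The cause of these moves was not tested, apart from the fewer or additional peaks that an alternative holds by construction. No paired analysis was possible because the table holds 1 value per group, and for the same reason no library could be left out. At the median of 45.5 first-listed and 49 second-listed reads per far intergenic peak, small differences of single peaks were not detectable.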

Other observations

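The 1363 far intergenic peaks in the chromosome parts left out of the set had a median log2 fold change of −0.10, first-listed minus second-listed, with 5 (0.367%) higher and 69 (5.06%) lower at an unadjusted p below 0.05, by the authors' deposited table, where the shares over all peaks are 3.37% and 1.69%. Medians there were −0.12 on chromosome 6 (502 peaks), −0.09 on chromosome 5 below 45 Mb (453), 0.06 on chromosome 8 above 92 Mb (205), −0.34 on chromosome 2 below 90 Mb (99), −0.27 on chromosome 9 above 40 Mb (65) and −0.30 on chromosome 17 above 25 Mb (39). On chromosome 2 below 90 Mb, 81 of the 99 peaks were below 0. Other peaks of these chromosome parts are not summarised here, so these values cannot be called particular to far intergenic peaks. Another 18 far intergenic peaks of the set lie on contigs outside the assembled chromosomes, of which 6 are at the lowest step.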
